A study of Dorcoceras hygrometricum with 3 samples.

Results

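The regions described here are stretches of leaf DNA whose methylation level differed between a hydrated and a dehydrated leaf of Boea hygrometrica and which were listed for 2 or more neighbouring genes at once. They were found as rows with the same scaffold, start and end under different gene names in the same table. Of 2690 distinct regions in the comparison of 70% relative water content (RWC) with the hydrated leaf, 466 were listed for several genes (17.3%, 95% interval 15.9 to 18.8%). Of 3093 distinct regions in the comparison of 10% RWC with the hydrated leaf, 549 were (17.7%, 16.4 to 19.1%). They held 953 of 3177 listed genes at 70% RWC (30.0%) and 1116 of 3660 at 10% RWC (30.5%).

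Whole-genome bisulfite sequencing was done on leaves of potted plants that were moderately dehydrated (70% RWC), desiccated (10% RWC) or hydrated. Each condition had 1 library, and the sources used here do not say how many plants it pooled. Every difference is therefore between 2 libraries, with no replicate check, and condition cannot be told apart from plant or library preparation. Both comparisons use the same hydrated library. The tables hold only regions that differed, as a mean level from 0 to 1 per library, without read numbers, so the depth behind a level is unknown and no p-value is given. Intervals on shares are exact (Clopper-Pearson) and intervals on differences of shares are Newcombe's, both at 95%. They cover the counting of regions only, and regions of the same libraries are not replicates.

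In plants DNA is methylated at cytosines in several sequence contexts, set by maintenance and RNA-directed pathways and removed by DNA glycosylases. Methylation over a promoter often goes with low transcription, while methylation inside the body of a gene is common in expressed genes. Where genes lie close together, a stretch of DNA can belong to both of them. Between genes that run away from each other it is upstream of both, a shared or bidirectional promoter. Between genes that point at each other it is downstream of both, and between genes that run the same way it is downstream of the gene in front and upstream of the next. Boea hygrometrica is a resurrection plant, whose leaves survive drying and recover on watering.

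The classes follow the gene parts the authors assigned. At 70% RWC, 38 regions were upstream of both genes (8.15% of 466), 106 were upstream of a gene and downstream of its neighbour (22.7%), and 68 were downstream of both (14.6%). A further 233 lay in the body of a gene and in the flank of its neighbour (50%), and 21 were listed for 3 genes (4.51%). In the same order the classes at 10% RWC held 48 (8.74%), 122 (22.2%), 89 (16.2%) and 273 (49.7%) of the 549 regions, and 17 regions had 3 or 4 genes (3.10%). The make-up was close in both tables. No region lay in the bodies of both its genes (0 of 466 and 0 of 549). In the gene body class the neighbour's flank was downstream in 145 regions and upstream in 88 at 70% RWC, and downstream in 180 and upstream in 93 at 10% RWC. Counted per gene, downstream flanks made up 44.1% and 44.8% of the genes, upstream flanks 30.2% and 29.9%, and gene bodies 25.7% and 25.3%, at 70% and 10% RWC.

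**Figure D1:**
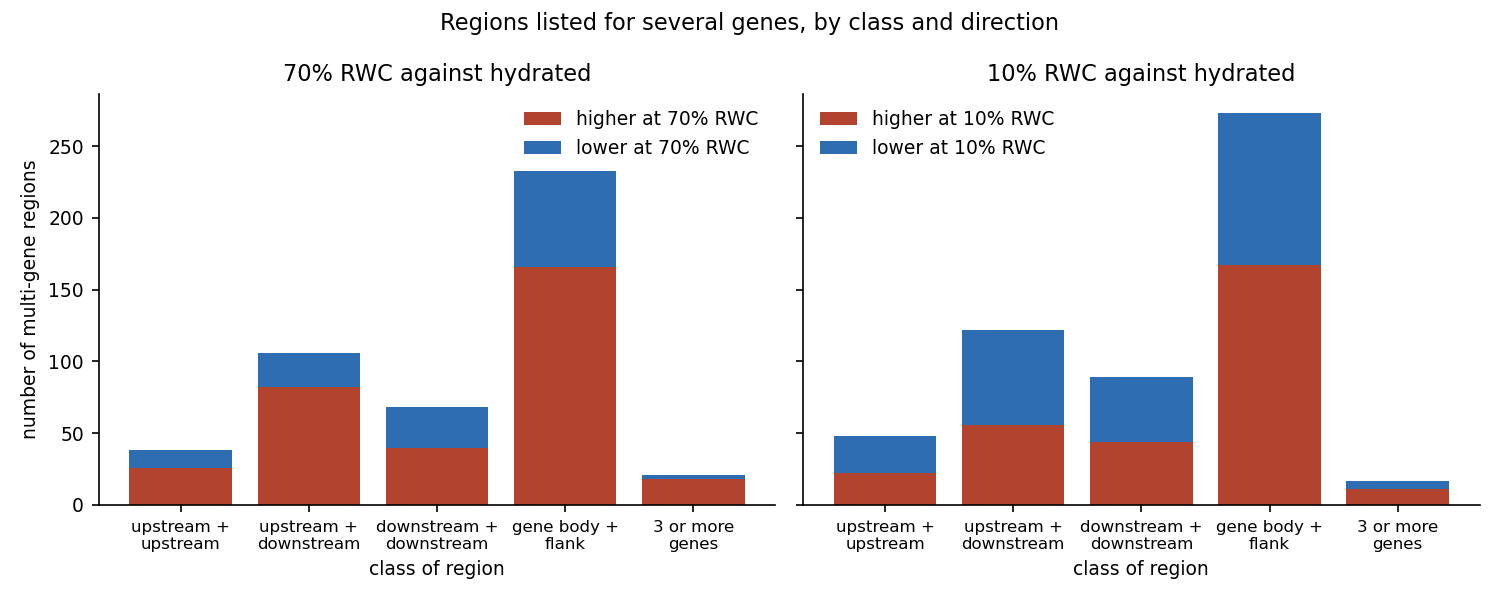
Number of regions listed for several genes (vertical axis) by class (horizontal axis), at 70% RWC (left) and 10% RWC (right), with red for regions higher and blue for regions lower than in the hydrated leaf. Gene body + flank is the tallest bar in both panels, with 233 and 273 regions, and the blue parts are larger at 10% RWC.

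The assignment itself sets some of these features. The midpoint of every flank region lay within 2000 bp of its gene and outside it, and in all but 4 and 3 gene body rows the midpoint lay inside the gene. Each gene was listed once per table. In 124 single-gene regions at 70% RWC (5.58%) and 129 at 10% RWC (5.07%) another gene of these tables was also within 2000 bp, and each of those genes was listed for a different region. Counting such genes too would make 21.9% of the regions multi-gene in either table. The 2 genes of a region had consecutive numbers along the scaffold in 445 of 445 pairs at 70% RWC and 531 of 532 at 10% RWC.

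Gene orientation could be read from whether the authors called a side upstream or downstream, and it matched for 536 of 536 genes with flank regions in both tables. Class comes from the same calls, so a region lying between its genes has their arrangement fixed by its class. The counts that follow describe the classes and are not a separate result. Of the upstream + upstream regions, 34 of 38 at 70% RWC and 42 of 48 at 10% RWC had divergent genes. Convergent genes flanked 65 of 68 and 86 of 89 downstream + downstream regions, and genes in tandem 99 of 106 and 113 of 122 upstream + downstream regions. The median gap between the genes was 1939 bp, 1956 bp and 1486.5 bp in these 3 classes at 70% RWC, and 897 bp in the gene body + flank class. In the same order the medians were 1872, 1759.5, 1277 and 909 bp at 10% RWC. Among pairs that share a region, the downstream + downstream class thus had a smaller median gap than the other flank classes, with overlapping quartile ranges. The 2000 bp reach applies to each gene, so a gap can exceed it where the region lies between the genes. The largest gaps at 70% RWC were 3397, 3660 and 2977 bp in the 3 flank classes and 1933 bp in the gene body + flank class.

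**Figure D2:**
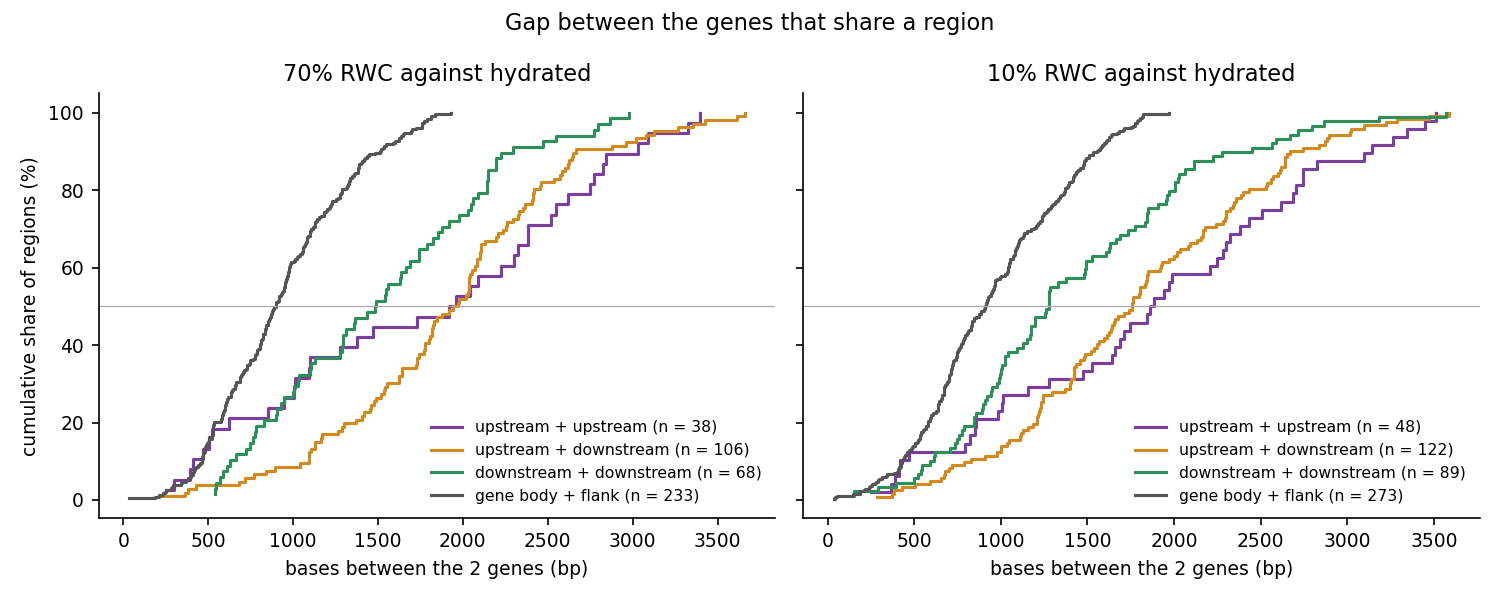
Cumulative share of regions (vertical axis, %) against the number of bases between the 2 genes (horizontal axis, bp), 1 line per class, for 70% RWC (left) and 10% RWC (right), with a grey line at 50%. The gene body + flank line reaches 50% at 897 and 909 bp and the downstream + downstream line at 1486.5 and 1277 bp, left of the other lines.

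Regions between 2 genes covered a small part of the gap. The median cover was 15.0% (upstream + upstream), 15.4% (upstream + downstream) and 16.5% (downstream + downstream) at 70% RWC, and 18.3%, 16.5% and 19.1% at 10% RWC, among regions wholly in the gap. Running into a gene was more common in the downstream + downstream class. Such regions made up 30 of 68 and 40 of 89 downstream + downstream regions, against 9 of 38 and 8 of 48 upstream + upstream regions. Of the upstream + downstream regions, 60 of 106 at 70% RWC and 71 of 122 at 10% RWC lay nearer to the gene whose downstream flank they were in. The genes of multi-gene regions were shorter than those of single-gene regions, with medians of 2094 against 2784 bp at 70% RWC and 2070 against 2818 bp at 10% RWC. This can follow in part from membership, as several genes must lie within 2000 bp of the same midpoint. Gene parts differed too. Gene bodies were 25.7% and 25.3% of multi-gene rows at 70% and 10% RWC, against 1162 of 2224 and 1336 of 2544 single-gene regions.

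At 70% RWC the level was higher than in the hydrated leaf in 332 of 466 multi-gene regions (71.2%, 66.9 to 75.3%). Among all distinct regions of that table the share was 70.4%, and among single-gene regions 1561 of 2224 (70.2%). The difference between multi-gene and single-gene regions was 1.06 percentage points (−3.60 to 5.43). At 10% RWC the level was higher in 300 of 549 multi-gene regions (54.6%, 50.4 to 58.9%), against 1429 of 2544 single-gene regions (56.2%), with 55.9% over all regions. That difference was −1.53 points (−6.13 to 3.02). Being listed for several genes thus went with no detectable shift in direction, and shifts of up to about 6 points either way lie within these intervals.

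The classes spread more widely than the total. At 70% RWC the level was higher in 82 of 106 upstream + downstream regions (77.4%, 68.2 to 84.9%), in 26 of 38 upstream + upstream regions (68.4%, 51.3 to 82.5%) and in 40 of 68 downstream + downstream regions (58.8%, 46.2 to 70.6%). It was higher in 166 of 233 gene body + flank regions (71.2%, 65.0 to 77.0%). Upstream + downstream regions exceeded downstream + downstream regions by 18.5 points (4.49 to 32.3), a comparison of the highest with the lowest class of 2 genes. The gap was narrower without regions overlapping the 10% RWC table (76.2% against 66.0%) and with 1 region per scaffold. It was wider with differences of at least 0.2 (79.5% against 53.8%) and at least 0.3 (79.3% against 43.8%). No interval was computed for the gap under these alternatives. Set against single-gene flank regions of the same kind, upstream + downstream regions differed by 7.96 points (−1.28 to 15.4). Downstream + downstream regions differed by −10.1 points (−22.6 to 1.54), so neither class was separated from its single-gene counterpart.

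The order changed at 10% RWC. Gene body + flank regions were higher in 167 of 273 (61.2%, 55.1 to 67.0%), while the 3 flank classes were near an even split. These were 22 of 48 upstream + upstream regions (45.8%, 31.4 to 60.8%), 56 of 122 upstream + downstream regions (45.9%, 36.8 to 55.2%) and 44 of 89 downstream + downstream regions (49.4%, 38.7 to 60.3%). Gene body + flank regions exceeded the flank classes together by 14.1 points (5.60 to 22.3), against 1.43 points at 70% RWC (−6.99 to 9.89). Single-gene regions showed the same split at 10% RWC, with 61.6% higher in gene bodies and 50.2% in flanks. None of the 4 classes at 10% RWC was separated from single-gene regions of the same gene part, with differences between −4.26 and −0.43 points. Within the gene body class, 62.4% of regions upstream of the neighbour and 60.6% of those downstream of it were higher.

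**Figure D3:**
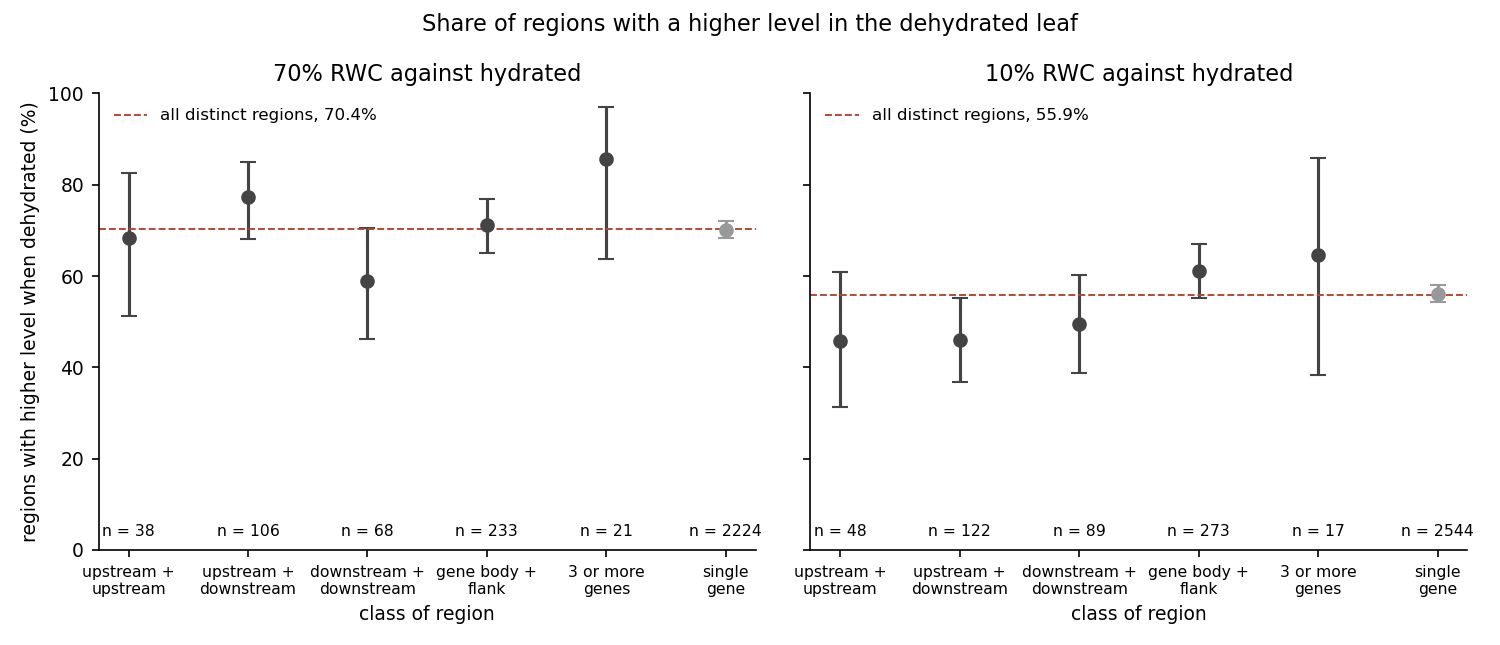
Share of regions with a higher level in the dehydrated leaf (vertical axis, %, points with exact 95% intervals) for the 5 multi-gene classes and single-gene regions (horizontal axis), at 70% RWC (left) and 10% RWC (right), with a dashed line for all distinct regions. At 70% RWC the pair classes run from 58.8% to 77.4%, and at 10% RWC the 3 flank classes sit below the line of 55.9% and gene body + flank above it.

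At 10% RWC direction varied with how methylated a region was, in multi-gene and single-gene regions alike. Among single-gene regions of that table, 68.8% were higher than in the hydrated leaf where the higher of the 2 levels was below 0.3, 51.8% where it was 0.3 to below 0.5, and 39.5% where it was 0.5 or above. Among regions of the 3 flank classes at 10% RWC whose higher level was below 0.3, 70.1% were higher than in the hydrated leaf, but only 33.3% were where the higher level was 0.3 to below 0.5, and 33.3% where it was 0.5 or above. For gene body + flank regions the shares were 69.0%, 60.2% and 35.0%. The difference between these sets was 26.9 points in the middle bin (12.0 to 40.2), −1.14 points in the lowest (−12.6 to 10.8) and 1.67 points in the highest (−15.3 to 19.8). Single-gene regions ran differently: gene body regions differed from flank regions by 2.64 points in the middle bin (−4.14 to 9.39), 4.60 in the lowest (−1.01 to 10.3) and 19.4 in the highest (11.5 to 27.1). At 70% RWC the shares did not fall with the level: the flank classes gave 68.8%, 74.2% and 64.4% over the same bins, gene body + flank regions 64.9%, 78.1% and 67.6%, and single-gene regions 68.3%, 74.0% and 67.8%. There, 11 of the 16 downstream + downstream regions with a level of 0.5 or above were lower than in the hydrated leaf, so that 31.3% were higher (11.0 to 58.7%).

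The size of the difference also varied by class. At 70% RWC the median absolute difference was 0.29 in upstream + upstream regions, 0.25 in upstream + downstream, 0.21 in downstream + downstream and 0.18 in gene body + flank regions, against 0.22 in single-gene regions. The values at 10% RWC were 0.265, 0.24, 0.19 and 0.17, against 0.21. Single-gene regions ran in a like order by gene part, with 0.26 upstream, 0.23 downstream and 0.20 in gene bodies at 70% RWC, and 0.25, 0.23 and 0.18 at 10% RWC. On this scale shared upstream regions had the largest differences of the pair classes in both tables and gene body + flank regions the smallest. As absolute log2 ratios with 0.01 added the medians were 1.52, 1.27, 1.24 and 1.15 at 70% RWC and 1.17, 1.28, 1.17 and 1.17 at 10% RWC, so at 10% RWC the order did not hold. A difference of at least 0.3 was reached by 19 of 38 upstream + upstream regions at 70% RWC (50%, with 26.0% over all regions), 12.2 points above single-gene upstream regions (−3.47 to 27.9), and by 15 of 48 at 10% RWC (31.3%, with 23.6% over all regions), a difference of −3.94 points (−15.8 to 10.6).

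Over all classes, 96 of 466 multi-gene regions at 70% RWC (20.6%) and 107 of 549 at 10% RWC (19.5%) differed by at least 0.3. They fell short of single-gene regions by −6.51 points (−10.4 to −2.21) and −5.04 points (−8.58 to −1.16). In gene body + flank regions at 70% RWC, 29 of 233 (12.4%) reached 0.3, against 252 of 1162 single-gene gene body regions (21.7%), a difference of −9.24 points (−13.6 to −3.88). At 10% RWC, 30 of 273 (11.0%) did, against 224 of 1336 (16.8%), a difference of −5.78 points (−9.59 to −1.11). The gene body rows of multi-gene regions, including those of 3 or more genes, lay closer to a gene end than those of single-gene regions, at a median of 352.5 against 755 bp at 70% RWC and 330.25 against 874 bp at 10% RWC. This follows at least in part from membership, as the neighbouring gene must lie within 2000 bp of the midpoint. The farthest multi-gene rows lay 1474.5 bp (70% RWC) and 1533 bp (10% RWC) from a gene end. Among gene body rows within 500 bp of a gene end, 15 of 161 rows from multi-gene regions reached 0.3 at 70% RWC (9.32%), against 73 of 425 from single-gene regions (17.2%), and 16 of 191 did at 10% RWC (8.38%), against 60 of 437 (13.7%). At 10% RWC downstream + downstream regions were also below single-gene downstream regions, with 19.1% against 30.6% (difference −11.5 points, −19.4 to −1.38), while at 70% RWC the difference was −4.34 points (−13.8 to 7.59).

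Large differences at 10% RWC were mostly losses. Of the 107 multi-gene regions of at least 0.3 there, 42 were higher and 65 lower than in the hydrated leaf (39.3% higher), as were 299 and 432 of all 731 such regions, and of the 42 upstream + downstream regions among them, 14 were higher and 28 lower. Among the 17 downstream + downstream regions, 9 were higher and 8 lower. Among the 30 gene body + flank regions, 10 were higher and 20 lower, so this class had no lead over the flank classes among large differences. Single-gene regions of at least 0.3 ran differently at 10% RWC, with 120 higher and 104 lower in gene bodies and 137 higher and 263 lower in flanks. At 70% RWC 64 of the 96 were higher and 32 lower, but of the 16 downstream + downstream regions 7 were higher and 9 lower. Over all multi-gene regions the absolute difference ran from 0.06 to 0.62 at 70% RWC and from 0.06 to 0.70 at 10% RWC. The dehydrated level was listed at 0 in 9 regions at 70% RWC and 3 at 10% RWC, and the hydrated level in 22 and 16.

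**Figure D4:**
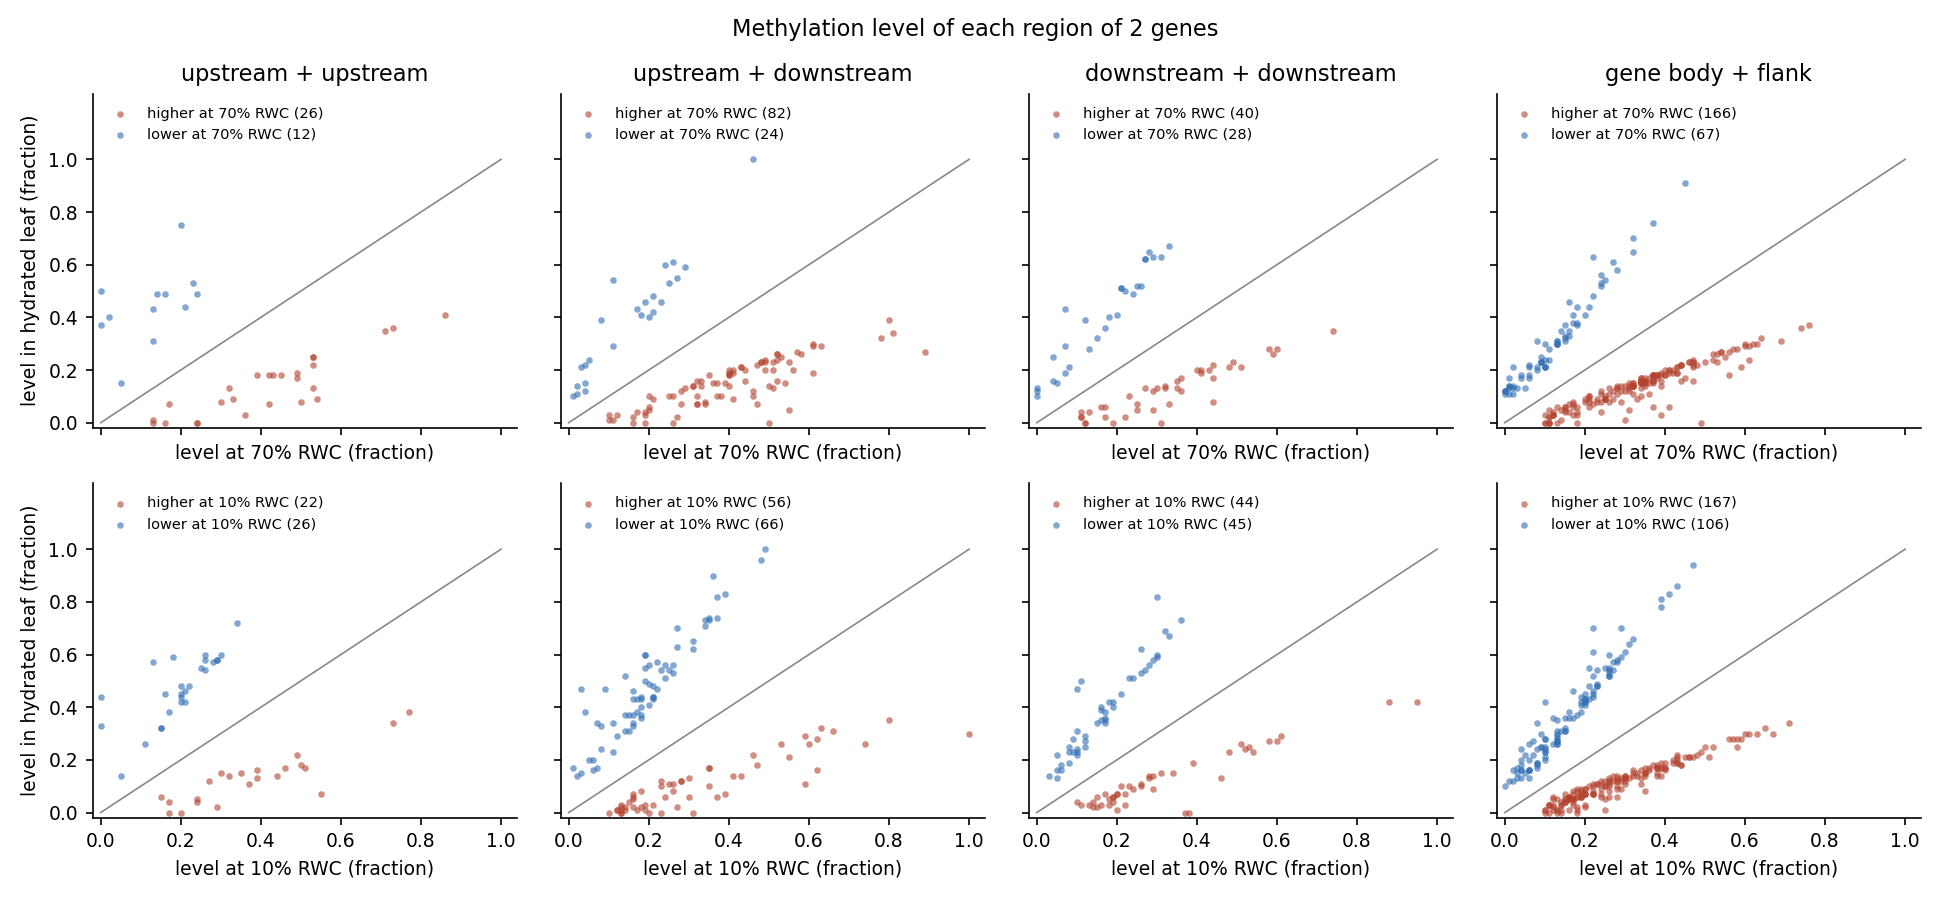
Level in the dehydrated leaf (horizontal axis, fraction) against the level in the hydrated leaf (vertical axis, fraction) for each region of 2 genes, by class (columns) and water content (rows), with red for higher and blue for lower in the dehydrated leaf and a line of equal levels. The band around the line is empty, as the tables list only regions that differed, and the gene body + flank clouds are densest near the origin, with 166 red points against 67 blue at 70% RWC and 167 against 106 at 10% RWC.

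Among shared upstream regions, the largest gains at 70% RWC were at a gene for a Mediator subunit and between genes for a ribosomal protein and a GTPase. Gene names here are the first KEGG description the authors gave, transferred by similarity and not checked in this species. A region named by a single gene can lie nearer to, or in, the other gene listed for it. The region on scaffold 137 from 5865 to 6147 had a level of 0.54 at 70% RWC, against 0.09 in the hydrated leaf. It lay 133 bp from Bhs137_002V1.1, described as a subunit of Mediator, the coactivator complex that links transcription factors to RNA polymerase, and 1625 bp from Bhs137_001V1.1, which has no description. The region on scaffold 649 from 609301 to 609543 had 0.86 at 70% RWC, against 0.41 in the hydrated leaf. It separates Bhs649_083V1.1, a large-subunit ribosomal protein, 1649 bp away, from Bhs649_084V1.1, a GTPase that modifies transfer RNA, 1137 bp away.

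The largest losses in this class at 70% RWC were at a splicing helicase and a ferredoxin. The region next to Bhs828_019V1.1, an ATP-dependent helicase of pre-mRNA splicing, had 0.20 at 70% RWC, against 0.75 in the hydrated leaf. The region 657 bp from Bhs222_026V1.1, a ferredoxin, which carries electrons in photosynthesis, was listed at 0 at 70% RWC, against 0.50 in the hydrated leaf. Both lay between divergent genes, and the partner genes Bhs828_020V1.1 and Bhs222_027V1.1 have no description.

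In 7 of the 38 upstream + upstream regions at 70% RWC both genes were described. Besides the ribosomal protein and GTPase pair, the largest differences were at a nucleic acid processing pair and a proteolysis and cell wall pair. The region between Bhs3275_003V1.1, a RAT1-interacting protein, and Bhs3275_004V1.1, a homologue of ERCC-4, a nuclease of DNA excision repair, had 0.73 at 70% RWC, against 0.36 in the hydrated leaf. The region between Bhs451_050V1.1, a subunit of the proteasome, and Bhs451_051V1.1, a pectate lyase, which cuts the pectin of cell walls, had 0.49 at 70% RWC, against 0.17 in the hydrated leaf. The region upstream of Bhs13_086V1.1, a serine carboxypeptidase-like protein, and of Bhs13_087V1.1 also had 0.49 at 70% RWC, against 0.19 in the hydrated leaf. It reached into Bhs13_086V1.1. A loss was seen at Bhs1036_009V1.1, which builds the galacturonic acid backbone of pectin, and its neighbour Bhs1036_010V1.1, described as a kinase. Upstream of both the level was 0.23 at 70% RWC, against 0.53 in the hydrated leaf, and in the 10% RWC table a region with the same start but a different end had 0.26 at 10% RWC, against 0.60 in the hydrated leaf.

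At 10% RWC the largest gain in a shared upstream region was at a chaperonin. The region 420 bp from Bhs704_044V1.1, described as chaperonin GroEL, which folds proteins, had 0.55 at 10% RWC, against 0.07 in the hydrated leaf. A region upstream of Bhs107_028V1.1, a mitochondrial solute carrier, reached into its neighbour Bhs107_029V1.1, an arginine- and serine-rich splicing factor. It had 0.73 at 10% RWC, against 0.34 in the hydrated leaf. The largest losses were at an amidohydrolase and glutaredoxin pair and at a histone methyltransferase. The region between Bhs158_052V1.1, an amidohydrolase, and Bhs158_053V1.1, a monothiol glutaredoxin, a class of redox protein, had 0.13 at 10% RWC, against 0.57 in the hydrated leaf. It lay 357 bp from the amidohydrolase gene and 1196 bp from the glutaredoxin gene. The region upstream of Bhs6088_007V1.1, described as the histone methyltransferase SETD2, was listed at 0 at 10% RWC, against 0.44 in the hydrated leaf.

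Both genes were described in 8 of the 48 upstream + upstream regions at 10% RWC. The region between Bhs11998_001V1.1 and Bhs11998_002V1.1, both leucine-rich repeat receptor kinases, had 0.44 at 10% RWC, against 0.14 in the hydrated leaf. The region 47 bp from Bhs126_035V1.1, a chalcone synthase, the entry enzyme of flavonoid synthesis, and 533 bp from Bhs126_034V1.1, a kinetochore protein, had 0.49 at 10% RWC, against 0.22 in the hydrated leaf.

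Between tandem genes, the largest difference in either table was at Bhs1835_010V1.1 and Bhs1835_011V1.1, neither of which has a description. The region on scaffold 1835 from 79165 to 79583 had 0.89 at 70% RWC, against 0.27 in the hydrated leaf. In the other table the region from 79263 to 79583 had 1 at 10% RWC, against 0.30 in the hydrated leaf. It touches the downstream end of Bhs1835_011V1.1.

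Other named gains in the upstream + downstream class at 70% RWC were at a chaperone, a transcription factor and a pectinesterase gene. The region 486 bp upstream of Bhs422_001V1.1, a DnaJ chaperone, lies on the same side of both its genes and had 0.55 at 70% RWC, against 0.05 in the hydrated leaf. The region upstream of Bhs263_046V1.1, a nuclear transcription factor Y subunit, had 0.78 at 70% RWC, against 0.32 in the hydrated leaf. The region downstream of Bhs8446_001V1.1, a pectinesterase, which modifies pectin, had 0.50 at 70% RWC and was listed at 0 in the hydrated leaf. Losses were led by 2 regions. The region on scaffold 18 from 98359 to 98644, by the undescribed Bhs18_011V1.1 and Bhs18_012V1.1, had 0.46 at 70% RWC, against 1 in the hydrated leaf. The region 1650 bp upstream of Bhs45_052V1.1, described as NADH dehydrogenase, had 0.11 at 70% RWC, against 0.54 in the hydrated leaf. It lay nearer, at 697 bp, to the undescribed Bhs45_053V1.1.

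The upstream + downstream class at 10% RWC held losses next to a chromatin gene, a nucleotide synthesis gene and a hormone receptor gene. The region 976 bp upstream of Bhs355_010V1.1, the histone-binding protein RBBP4, had 0.36 at 10% RWC, against 0.90 in the hydrated leaf. The region 240 bp upstream of Bhs211_074V1.1, a GMP synthase, had 0.49 at 10% RWC, against 1 in the hydrated leaf. The region 633 bp upstream of Bhs68_051V1.1, a homeobox-leucine zipper transcription factor, had 0.03 at 10% RWC, against 0.47 in the hydrated leaf. It reached into the downstream end of the undescribed Bhs68_050V1.1. All 3 lost more than 0.40. The region downstream of Bhs109_042V1.1, a PYR/PYL receptor of the drought hormone abscisic acid, and upstream of Bhs109_043V1.1, an RNA helicase, had 0.07 at 10% RWC, against 0.34 in the hydrated leaf. A gain was seen upstream of Bhs2379_007V1.1, which has no description, with 0.74 at 10% RWC, against 0.26 in the hydrated leaf.

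Between convergent genes at 70% RWC, the largest gain joined an RNA processing gene and a calcium sensor. The region downstream of Bhs6569_005V1.1, a subunit of the cleavage and polyadenylation factor that forms mRNA ends, and of Bhs6569_006V1.1, a calmodulin-like protein, had 0.74 at 70% RWC, against 0.35 in the hydrated leaf. The region 965 bp from Bhs32_155V1.1, cyclin-dependent kinase 7, which acts in the cell cycle and transcription, had 0.44 at 70% RWC, against 0.08 in the hydrated leaf. It reached into the downstream end of the undescribed Bhs32_154V1.1. A loss was seen 1013 bp downstream of Bhs645_007V1.1, a receptor kinase, with 0.28 at 70% RWC, against 0.65 in the hydrated leaf. That region was nearer, at 390 bp, to Bhs645_008V1.1, described as a subunit of the endonuclease SLX1. The region 607 bp downstream of Bhs40_119V1.1, a xanthoxin dehydrogenase, which acts in abscisic acid synthesis, had 0.49 at 70% RWC, against 0.23 in the hydrated leaf.

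Convergent genes at 10% RWC flanked large changes in both directions. The region on scaffold 761 from 40741 to 40954, by 2 undescribed genes, had 0.95 at 10% RWC, against 0.42 in the hydrated leaf. The region downstream of Bhs1934_003V1.1, a homogentisate solanesyltransferase of plastoquinone synthesis, had 0.30 at 10% RWC, against 0.82 in the hydrated leaf. The region 214 bp downstream of Bhs119_054V1.1, a xyloglucan transferase of the cell wall, had 0.38 at 10% RWC and was listed at 0 in the hydrated leaf. It reached into the downstream end of the undescribed Bhs119_055V1.1.

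In the gene body + flank class, the largest gain at 70% RWC lay in Bhs211_007V1.1, an alpha-glucosidase, where a region of 773 bp had 0.49 at 70% RWC and was listed at 0 in the hydrated leaf. The region in the body of Bhs18_093V1.1, a ferredoxin-NADP+ reductase, the last enzyme of photosynthetic electron transport, had 0.22 at 70% RWC, against 0.63 in the hydrated leaf. It lay 946 bp downstream of a beta tubulin gene, Bhs18_092V1.1. At 10% RWC the largest gains were in Bhs1834_020V1.1, an E2F transcription factor of the cell cycle, with 0.71 at 10% RWC, against 0.34 in the hydrated leaf, and in Bhs95_013V1.1, a THO complex subunit of mRNA export, with 0.67 at 10% RWC, against 0.30 in the hydrated leaf. The largest loss was in the undescribed Bhs603_020V1.1, with 0.22 at 10% RWC, against 0.70 in the hydrated leaf. That region lay 1602 bp upstream of Bhs603_019V1.1, a phospholipase C. The next largest loss was in Bhs85_077V1.1, an E3 ubiquitin ligase, with 0.47 at 10% RWC, against 0.94 in the hydrated leaf. This last region also lies downstream of Bhs85_076V1.1, a translation initiation factor.

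Regions listed for 3 or more genes were higher in 18 of 21 at 70% RWC (85.7%, 63.7 to 97.0%) and in 11 of 17 at 10% RWC (64.7%, 38.3 to 85.8%), with 70.4% and 55.9% over all regions. Neither was separated from single-gene regions, with differences of 15.5 points (−4.91 to 25.03) and 8.53 points (−14.9 to 26.6). Of their genes, 31 of 63 at 70% RWC and 24 of 52 at 10% RWC were under 1000 bp long. Among the genes of all multi-gene regions 24.9% and 25.1% were that short, and among those of single-gene regions 17.6% and 16.8%. Short genes can follow in part from membership here too, as all genes of a region must lie within 2000 bp of its midpoint. The largest difference was on scaffold 6565 in both tables. A region from 2398 to 2775 had 0.57 at 70% RWC, against 0.12 in the hydrated leaf, and was listed for 3 genes, among them Bhs6565_001V1.1, a T2 ribonuclease. A shorter one from 2398 to 2646 had 0.63 at 10% RWC, against 0.17 in the hydrated leaf, and was listed for 4 genes, the fourth being Bhs6565_004V1.1, a response regulator of cytokinin-type signalling. It was the only region of 4 genes in either table.

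A few neighbours carried the same description. Both genes were described in 110 of 445 pairs at 70% RWC and 129 of 532 at 10% RWC, and in 5 pairs of each table the descriptions were the same. All 5 were higher at 70% RWC, where 70.4% of all regions were. The largest was at Bhs595_003V1.1 and Bhs595_004V1.1, both 696 bp long and both carrying the transferred name gelatinase A, with 0.81 at 70% RWC, against 0.34 in the hydrated leaf. The others were a spermidine synthase pair, Bhs10305_002V1.1 and Bhs10305_003V1.1, with 0.55 at 70% RWC, against 0.23 in the hydrated leaf, and a pair for glutamate-cysteine ligase, the first enzyme of glutathione synthesis, Bhs211_054V1.1 and Bhs211_055V1.1, with 0.39 at 70% RWC, against 0.18 in the hydrated leaf. The remaining pairs were of MYB genes and of chitin elicitor receptor kinases. Reads from near-identical copies can map to either copy, and how such reads were handled is not known here.

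At 10% RWC 4 of the 5 such pairs were lower, with 44.1% of all regions lower. The region of the UDP-glucosyl transferase pair Bhs3910_001V1.1 and Bhs3910_002V1.1 had 0.39 at 10% RWC, against 0.83 in the hydrated leaf. It reached into Bhs3910_001V1.1. A pair described as Dicer, the nuclease that makes small RNAs, Bhs1722_006V1.1 and Bhs1722_007V1.1, shared a region with 0.10 at 10% RWC, against 0.28 in the hydrated leaf. The region of an EREBP pair, transcription factors of the ethylene response, Bhs176_045V1.1 and Bhs176_046V1.1, was the higher one, with 0.63 at 10% RWC, against 0.32 in the hydrated leaf. The chitin elicitor receptor kinase pair, Bhs120_060V1.1 and Bhs120_061V1.1, appeared in both tables through different stretches of the same scaffold. From 432031 to 432552 the level was 0.26 at 70% RWC, against 0.08 in the hydrated leaf, and from 431144 to 431757 it was 0.04 at 10% RWC, against 0.20 in the hydrated leaf.

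Functional lists drawn by keyword from the descriptions gave small counts. At 70% RWC genes of the protein kinase list were higher in 26 and lower in 14 multi-gene rows, transporters in 22 and 7, and transcription factors in 12 and 2. Ribosome and translation genes were higher in 16 and lower in 5, lipid metabolism genes in 13 and 4, proteases in 9 and 2, and antioxidant and glutathione genes in 9 and 4. Chaperones stood at 12 higher and 9 lower and photosynthesis genes at 5 and 4. Most lists leaned the way the whole table did, with 70.4% of all distinct regions higher. Counted per gene, 71.6% of the 953 genes of multi-gene regions were higher. Over all rows of the table, the lists named here ran from 59.5% higher (chaperones) to 80.6% (antioxidant and glutathione).

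At 10% RWC 55.9% of all distinct regions were higher, and 54.8% of the 1116 genes of multi-gene regions. The protein kinase list was split, with 26 higher and 27 lower, and so were carbohydrate metabolism, with 12 and 12, and ribosome and translation, with 11 and 10. The list of RNA silencing and chromatin genes, which holds Dicer, histone and helicase descriptions, had 4 higher and 10 lower in multi-gene regions, with a median difference of −0.19 over its 13 regions. Over all rows of that table, 31 of the 54 genes of this list were higher. The 3 abscisic acid genes in multi-gene regions were lower, and 3 of the 9 genes of this list over the whole table were higher. Ubiquitin and proteasome genes were higher in 15 and lower in 8, transcription factors in 13 and 6, and transporters in 21 and 13.

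Some regions recurred. By at least 1 bp, 29.6% of multi-gene regions at 70% RWC overlapped any region of the 10% RWC table, against 25.8% of single-gene regions. Of those at 10% RWC, 25.3% overlapped a region of the 70% RWC table, against 22.4%. The order was the same at a reciprocal overlap of 50%. With identical boundaries it was reversed, with 3.004% against 4.496% at 70% RWC and 2.914% against 3.852% at 10% RWC. Multi-gene regions were also longer, with medians of 356 against 333 bp at 70% RWC and 353 against 329.5 bp at 10% RWC. Whether length sets these orders was not tested. In 119 cases a multi-gene region of each table overlapped by at least 1 bp, for the same genes in 115, and 13 had identical boundaries. The level was higher than in the hydrated leaf in both tables for 77, lower in both for 34 and of opposite direction for 8. Directions were not counted for the 554 overlaps between single-gene regions. These counts, and those by class below, are therefore not shown to be particular to multi-gene regions. Both tables use the same hydrated library, so that agreement of direction is partly built in, and it is given here as values only. Where class was the same in both, 14 upstream + upstream overlaps were 9 higher and 5 lower, and 19 upstream + downstream overlaps were 15 higher, 3 lower and 1 opposite. The 15 downstream + downstream overlaps were 5 higher, 9 lower and 1 opposite, and 58 gene body + flank overlaps were 41 higher, 14 lower and 3 opposite. All 5 overlaps of 3 or more genes were higher.

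Of the regions with identical boundaries, the largest gain was at scaffold 8301 from 16458 to 16828, between the undescribed genes Bhs8301_001V1.1 and Bhs8301_002V1.1. Its level was 0.47 at 70% RWC and 0.39 at 10% RWC, against 0.07 in the hydrated leaf. The region in Bhs267_013V1.1, a calmodulin-like calcium-binding protein, had 0.56 at 70% RWC and 0.44 at 10% RWC, against 0.18 in the hydrated leaf. The largest loss was in Bhs5337_010V1.1, with 0.32 at 70% RWC and 0.29 at 10% RWC, against 0.70 in the hydrated leaf.

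**Figure D5:**
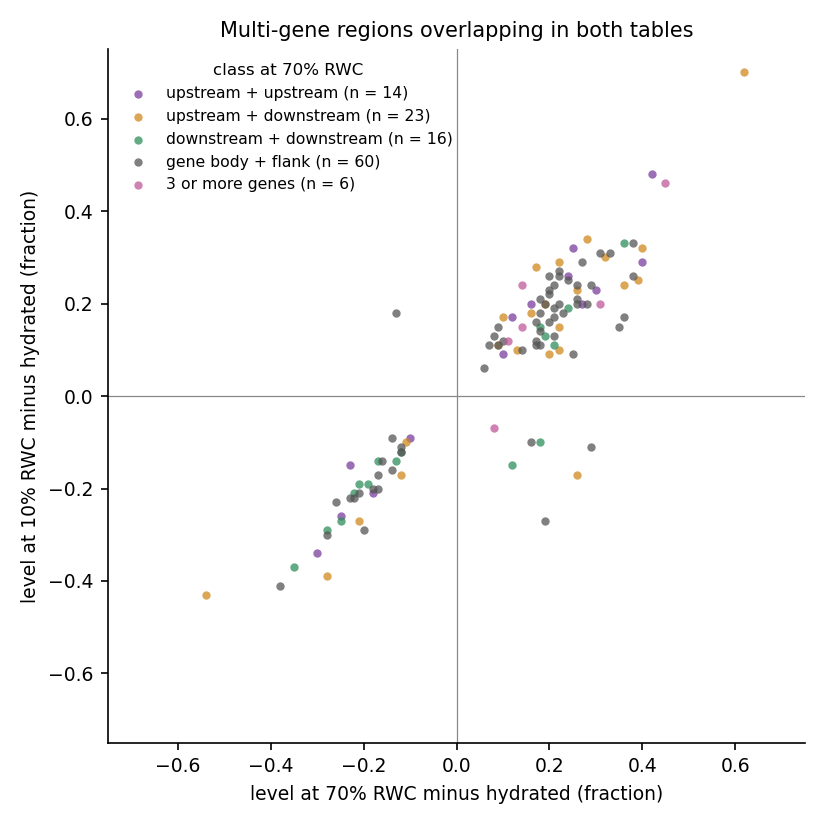
Difference from the hydrated leaf at 70% RWC (horizontal axis, fraction) and at 10% RWC (vertical axis, fraction) for the 119 overlaps of multi-gene regions, coloured by class at 70% RWC. There are 77 points in the upper right, 34 in the lower left and 8 in the other quadrants, and both axes use the same hydrated library.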

How the data were processed

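Levels are methylation fractions from 0 to 1 with 2 decimals, deposited by the authors as a mean per region and library, per the file headers. Library preparation was by sonication, methylated adaptors, bisulfite treatment and PCR, per the labels' protocols. Not given in the sources used here are the aligner, region caller, sequence contexts, coverage and assembly, so the depth and precision of a level are unknown. Blank rows were left out, and a gene's end was set from its start and length. Regions with the same scaffold, start and end were counted once and classed by gene part. Shares carry exact 95% binomial intervals and differences Newcombe intervals, with no p-value, since each condition has 1 library.

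Named regions are, per table, the 2 largest absolute differences per pair class and direction, the 3 largest for 3 or more genes, the 3 largest per direction with identical boundaries, the 5 largest with the same description, the 5 largest upstream + upstream regions with all genes described, and the largest per functional list. Some of these are left out for brevity, and all overlaps of opposite direction are named. The members, classes and lists were chosen with earlier results of these data known. Bins of gap, gene body position and large differences were chosen after seeing the data. Scripts were tested on simulated tables. Intervals came from scipy 1.17.1 (exact) and statsmodels 0.14.6 (Newcombe), run with pandas 2.3.3 in Python 3.11.15 with numpy 2.4.6.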

Additional observations from a re-analysis of the deposited data

Results flagged for a closer look

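At 8 places a multi-gene region of each table overlapped and the level moved in opposite directions from the hydrated leaf. The difference between water contents was not tested, since each has 1 library, and opposite directions were not counted for overlaps of single-gene regions. Differences are levels in the dehydrated leaf minus the hydrated leaf. They were 0.29 at 70% RWC and −0.11 at 10% RWC at Bhs1598_013V1.1 and Bhs1598_014V1.1, 0.26 and −0.17 at Bhs8093_003V1.1 and Bhs8093_004V1.1, and 0.19 and −0.27 at Bhs6251_002V1.1 and Bhs6251_003V1.1. They were 0.18 and −0.10 at Bhs878_015V1.1 and Bhs878_016V1.1, 0.16 at Bhs63_073V1.1 and Bhs63_074V1.1 and −0.10 at Bhs63_072V1.1 and Bhs63_073V1.1, and 0.12 and −0.15 at Bhs5_108V1.1 and Bhs5_109V1.1. They were 0.08 at 70% RWC, listed for Bhs3774_002V1.1, Bhs3774_003V1.1 and Bhs3774_004V1.1, and −0.07 at 10% RWC, listed for the first and last of these genes. The reverse order was seen at Bhs3484_001V1.1 and Bhs3484_002V1.1, with −0.13 at 70% RWC and 0.18 at 10% RWC. The stretches overlap without being identical, and the hydrated levels of the 2 stretches differed by a median of 0.07 in these 8 places, against 0.02 in the 111 overlaps of the same direction.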

How the results depend on the processing

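No paired analysis was possible because each condition has 1 library, and for the same reason no replicate could be left out. Over the alternatives run, 124 values were counted as unchanged and 68 as moved. Shares and medians counted as moved where they left the interval of the main value. Differences of shares were judged by whether their interval excluded no difference, and counts of regions in both tables by a fold limit. The 10 medians given as log2 ratios are in another unit and were all counted as moved. The cause of a move was not tested, unless the alternative itself fixes it, as a minimum difference does for medians.

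With differences of at least 0.2, the share higher among multi-gene regions at 10% RWC was 42.8%, below an even split, and with at least 0.3 it was 39.3%. With at least 0.3 the share at 70% RWC was 66.7%. By class, upstream + downstream regions at 10% RWC stood at 32.4% and 33.3%, and gene body + flank regions at 50.5% and 33.3%, under these 2 minimums. At 70% RWC gene body + flank regions stood at 77.2% with at least 0.2, and downstream + downstream regions at 43.8% with at least 0.3, again below an even split. Regions of 3 or more genes stood at 100% in both tables with at least 0.3, on 3 regions each.

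With at least 0.2, upstream + upstream regions made up 12.3% (70% RWC) and 13.7% (10% RWC) of multi-gene regions, upstream + downstream regions 28.9% and 27.3%, and gene body + flank regions 39.9% and 41.0%. Median absolute differences were then 0.28, 0.27 and 0.25 at 70% RWC and 0.31, 0.285 and 0.25 at 10% RWC in the upstream + downstream, downstream + downstream and gene body + flank classes. With at least 0.3 the medians of the 5 classes were 0.36, 0.36, 0.335, 0.33 and 0.32 at 70% RWC and 0.34, 0.365, 0.37, 0.33 and 0.35 at 10% RWC.

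With 1 region per scaffold, which takes the largest difference, 13.1% and 14.1% of regions at 70% and 10% RWC were multi-gene. Upstream + upstream regions made up 11.8% and 11.7% of them, upstream + downstream 29.2% and 26.6%, gene body + flank 42.1% and 40.2%, and regions of 3 genes 2.81% at 70% RWC, of which 60.0% were higher. Medians were then 0.265 and 0.31 for upstream + downstream, 0.20 and 0.195 for gene body + flank, and 0.23 for downstream + downstream regions at 10% RWC. With gene parts from coordinates, where any overlap with a gene counts as its body, gene body + flank regions made up 63.7% and 62.8%, upstream + downstream 17.2% and 17.5%, and downstream + downstream 8.15% and 8.93%. As absolute log2 ratios with 0.01 added, the class medians were 1.52, 1.27, 1.24, 1.15 and 1.32 at 70% RWC and 1.17, 1.28, 1.17, 1.17 and 1.28 at 10% RWC. With every gene within 2000 bp of the midpoint counted, an alternative chosen after seeing the data, 21.9% of regions were multi-gene in both tables. Regions found in both tables numbered 119 at 1 bp or more of overlap and 96 at a reciprocal 50%, against 13 with identical boundaries.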

Other observations

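Of the 953 genes in multi-gene regions at 70% RWC and the 1116 at 10% RWC, 292 were in both sets. They made up 30.6% of the set at 70% RWC and 26.2% of that at 10% RWC. The same share was not computed for all listed genes or for genes of single-gene regions. Whether the overlap is particular to multi-gene regions is therefore not known.

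Split by the gap between the genes, upstream + downstream regions at 10% RWC were higher than in the hydrated leaf in 11 of 15 where the gap was below 1000 bp (73.3%, 44.9 to 92.2%), in 23 of 62 at 1000 to below 2000 bp (37.1%, 25.2 to 50.3%) and in 22 of 45 from 2000 bp up (48.9%, 33.7 to 64.2%). Downstream + downstream regions at 70% RWC were higher in 10 of 18, 15 of 32 and 15 of 18 over the same bins. The intervals of most bins overlap.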
